A study of Mus musculus with 8 samples.

Results

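The liver makes ketone bodies and moves them, with lactate and pyruvate, across its cell membrane, and 8 genes of this traffic were followed here in bulk RNA sequencing. They were 3 enzyme genes of ketone metabolism (Acat1, Bdh1 and Oxct1) and 5 genes of the Slc16 family of monocarboxylate carriers (Slc16a1, Slc16a6, Slc16a7, Slc16a11 and Slc16a13). The genes were taken by symbol from a table of 55487 genes, where each of the 8 had 1 row. The libraries were made from liver tissue. The mice were male, of the inbred strain C57Bl/6J, and about 10 weeks of age. A control group of 4 libraries came from mice given water by oral gavage, and a sorbate group of 4 came from mice given 17 mg of potassium sorbate, a food preservative whose anion is an unsaturated fatty acid. Livers of both groups were taken after 4 hours. Since no label ties a library to one animal, p-values here reflect only how much these libraries vary, which may be technical. The comparison asks how sorbate changes liver transcripts relative to water, in a series whose title concerns lysine sorbylation and inflammation genes.

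Ketone bodies are made from acetyl-CoA in liver mitochondria. The thiolase ACAT1 joins acetyl-CoA units and also splits acetoacetyl-CoA, later enzymes carry the intermediate on to acetoacetate, and BDH1 reduces acetoacetate to beta-hydroxybutyrate. OXCT1 reactivates acetoacetate in the tissues that burn ketones, and hepatocytes are known for having little of it. The carriers MCT1, encoded by Slc16a1, and MCT2, encoded by Slc16a7, move lactate, pyruvate and ketone bodies together with protons, and MCT2 has the higher affinity for its substrates. The protein of Slc16a6 was described as the exporter of beta-hydroxybutyrate from zebrafish hepatocytes, and those of Slc16a11 and Slc16a13 are liver-expressed members of the family.

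One library stood apart before any gene was tested: control 2 lay on the side of the sorbate libraries on the first principal component of all genes. Several fold changes are therefore also given without it, while the group means, ratios and correlations below include it. A second check used 1 surrogate variable, a covariate estimated from the counts.

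The carrier genes moved in opposite directions. On the log2 scale Slc16a7 rose by 1.00 with sorbate, Slc16a1 fell by 1.40 and Slc16a6 fell by 1.84. Slc16a11, Slc16a13 and the 3 enzyme genes did not pass the test. All 8 genes passed the filter on low counts. Of them 1 was higher and 2 were lower at an adjusted p under 0.05 (quasi-likelihood test of edgeR, Benjamini-Hochberg adjusted over 13312 genes), where 6.14% of all genes tested were called higher and 6.3% lower, together 12.4%. In 4 of the 8 genes the groups did not overlap (Slc16a1, Slc16a6, Slc16a7 and Acat1), against 17.7% of all genes tested. Of the 4, 2 were higher and 2 lower with sorbate, beside 9.42% and 8.32% of all genes. The median log2 fold change of the 8 was 0.27, beside −0.02 over all genes tested. All values below are CPM, counts scaled to a common library size, and all fold changes are sorbate over control.

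**Figure D1:**
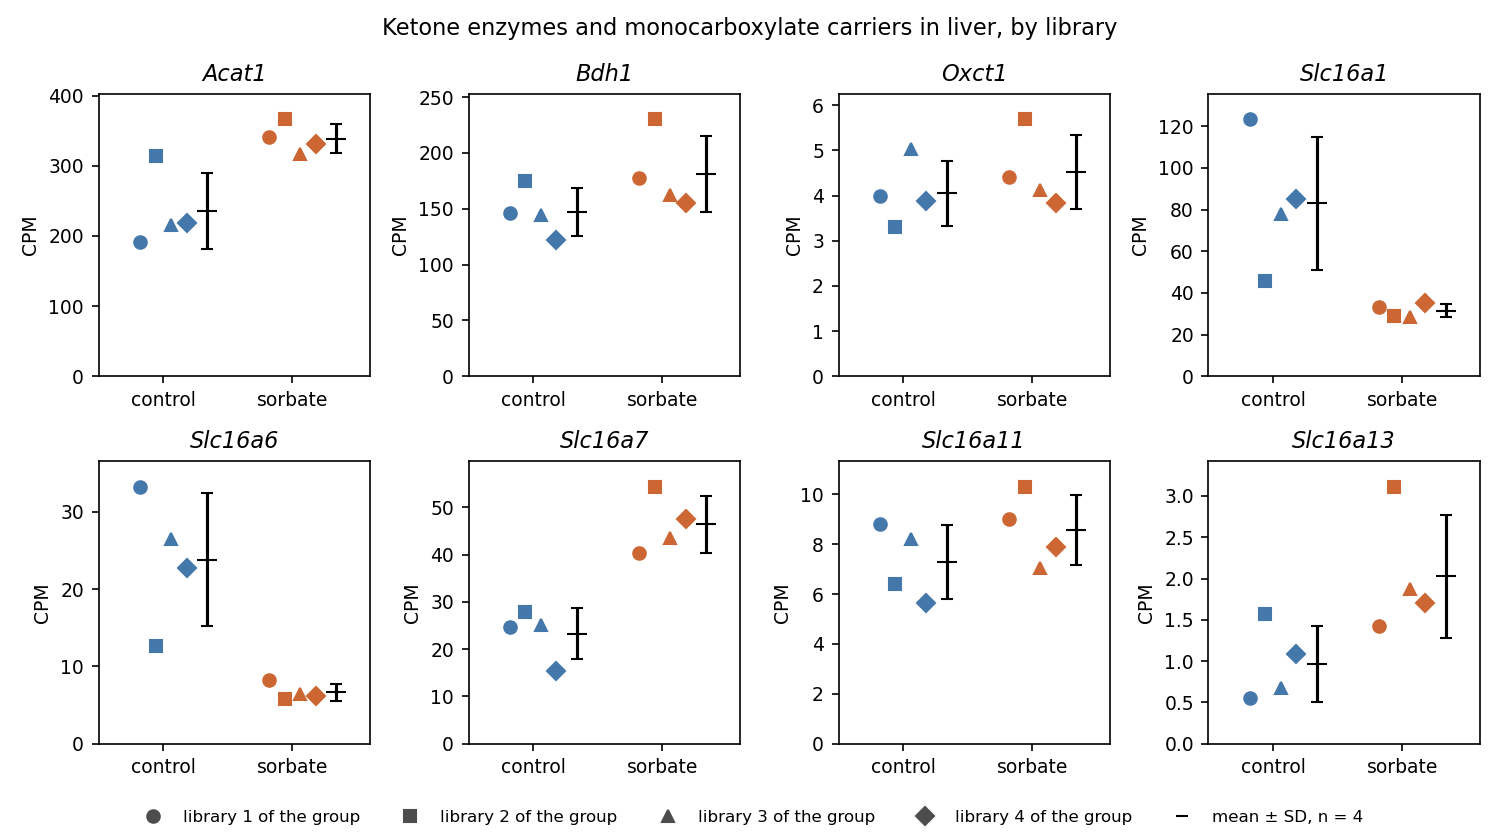
Level of each of the 8 genes in CPM (vertical axes, from 0) in the 4 control and 4 sorbate libraries, with 1 symbol per library and the mean ± SD beside them. Slc16a1 and Slc16a6 lie lower in every sorbate library than in any control, Slc16a7 lies higher, and control 2, the square, is the control nearest to the sorbate group in Slc16a1, Slc16a6, Slc16a7 and Acat1.

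The start of Slc16a1, the one of the 5 carrier genes with the most reads, is shown because it holds the motif that was found at the gene starts. RefSeq windows from 250 bases before to 50 after the gene start (GRCm38.p6) were matched for 4 of the 8 genes, Slc16a1, Slc16a11, Oxct1 and Bdh1, the last with 2 starts. The Slc16a1 window lies at chr3:104638414-104638713 on the plus strand, and the capitals mark a CACGTG.

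Slc16a1: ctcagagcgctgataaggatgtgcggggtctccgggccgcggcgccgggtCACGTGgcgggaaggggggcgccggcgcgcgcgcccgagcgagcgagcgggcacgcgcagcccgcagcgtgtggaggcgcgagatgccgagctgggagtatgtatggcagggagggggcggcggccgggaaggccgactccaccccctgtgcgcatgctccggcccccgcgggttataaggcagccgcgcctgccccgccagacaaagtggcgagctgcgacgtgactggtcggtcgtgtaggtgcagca

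This E-box, CACGTG, is known to be bound by the clock factors CLOCK and BMAL1 and by MYC and USF. It starts 200 bases before the gene start, and was searched on both strands, as were the D-box TTATGTAA, the SRE TCACNCCAC of SREBP factors and the DR1 element of PPAR-alpha and HNF4A, AGGTCA repeated after 1 base. An E-box stood in 1 of the 5 windows of these genes, and in 7.15% of the 32851 RefSeq windows of the same length. The D-box, SRE and DR1 letters stood in 0 of the 5, and in 0.938%, 1.24% and 0.0396% of all windows. The Slc16a1 window held 42 CG pairs, where the median over all windows is 7. No binding was measured in this series, so a match describes letters only.

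Slc16a1 (ENSMUSG00000032902, chromosome 3, 104638668 to 104658462, plus strand) encodes MCT1, the broadly expressed proton-linked carrier. Its level was 123.4, 45.7, 78.0 and 84.9 CPM in controls 1 to 4, and 33.2, 29.1, 28.4 and 35.2 CPM in sorbate libraries 1 to 4. Every sorbate library was below every control, and control 2 was the lowest control by a wide margin. The means were 83.0 ± 31.9 and 31.5 ± 3.29 CPM (SD, n = 4 per group), which on the log2 scale is a change of −1.40 (SE 0.24, 95% interval −1.94 to −0.86, edgeR adjusted p = 0.00651). The SD of the controls was thus far larger than that of the sorbate libraries. Without control 2 the log2 fold change was −1.59, and with 1 surrogate variable as a covariate it was −0.83 (adjusted p = 0.0131).

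Slc16a6 (ENSMUSG00000041920, chromosome 11, 109450855 to 109473598, minus strand) fell further. The controls held 33.3, 12.7, 26.5 and 22.7 CPM and the sorbate libraries 8.18, 5.78, 6.40 and 6.15 CPM. The groups did not overlap, and control 2 again stood nearest to the sorbate libraries. The means were 23.8 ± 8.59 and 6.63 ± 1.07 CPM (SD, n = 4), a log2 fold change of −1.84 (SE 0.26, 95% interval −2.41 to −1.28, edgeR adjusted p = 0.00258). Leaving out control 2 gave −2.04, and the surrogate variable gave −1.26 (adjusted p = 0.00232). Slc16a6 overlaps 2 protein-coding genes on the other strand, and whether the counting used strand is not given in the sources used here. Amz2 shares 1052 exon bases with it and stood at 15.4 ± 0.998 and 14.1 ± 1.84 CPM (log2 change −0.12, SE 0.12, edgeR adjusted p = 0.530). Arsg, which encodes a lysosomal sulfatase, shares 48 exon bases and was lower with sorbate, at 21.8 ± 3.99 against 44.6 ± 6.19 CPM (log2 change −1.03, SE 0.15, edgeR adjusted p = 0.00287). The part of shared reads in the values of Slc16a6 was not tested.

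Slc16a7 (ENSMUSG00000020102, chromosome 10, 125219270 to 125389465, minus strand), which encodes MCT2, went the other way. Its level was 24.6, 27.9, 25.1 and 15.4 CPM in controls 1 to 4, and 40.3, 54.4, 43.6 and 47.5 CPM in sorbate libraries 1 to 4. All sorbate libraries were above all controls, and here the control that differed most from the other 3 was control 4, not control 2. The means were 23.3 ± 5.42 and 46.4 ± 6.04 CPM (SD, n = 4), a log2 fold change of 1.00 (SE 0.17, 95% interval 0.61 to 1.38, edgeR adjusted p = 0.00658). Of the 3 called genes it moved least with the surrogate variable, to 0.88 (adjusted p = 0.0302), and it was 1.11 without control 2 and 0.84 without control 4. Overlapping transcripts on the other strand had 0 reads in all 8 libraries.

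The opposite changes can be read within each library, where the scaling of libraries cancels. Per kilobase of merged exon, the ratio of Slc16a1 to Slc16a7 was 13.4, 4.38, 8.31 and 14.7 in controls 1 to 4, and 2.20, 1.43, 1.74 and 1.99 in the sorbate libraries. The mean ratio was 10.2 ± 4.76 among controls against 1.84 ± 0.331 with sorbate (SD, n = 4), and the groups did not overlap. The ratio of Slc16a6 to Slc16a7 was 2.63 ± 1.10 and 0.355 ± 0.0999. Per kilobase Slc16a6 was thus the higher of the pair in every control and the lower in every sorbate library. The ratio of Slc16a1 to Slc16a6 differed less, at 3.86 ± 0.412 and 5.31 ± 0.811, and its lowest sorbate value, 4.47, was above its highest control value, 4.12. These ratios restate the fold changes above and were not tested. The merged exons of Slc16a7 in GENCODE vM21 span 11839 bases, against 4426 for Slc16a1 and 4883 for Slc16a6. If livers use shorter forms, its level per kilobase is understated, and whether both groups use the same forms was not tested. Which of Slc16a6 and Slc16a7 is the higher in the controls depends on these lengths. In plain CPM control 2 held 12.7 for Slc16a6 and 27.9 for Slc16a7, while Slc16a6 was the higher in the other controls.

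**Figure D2:**
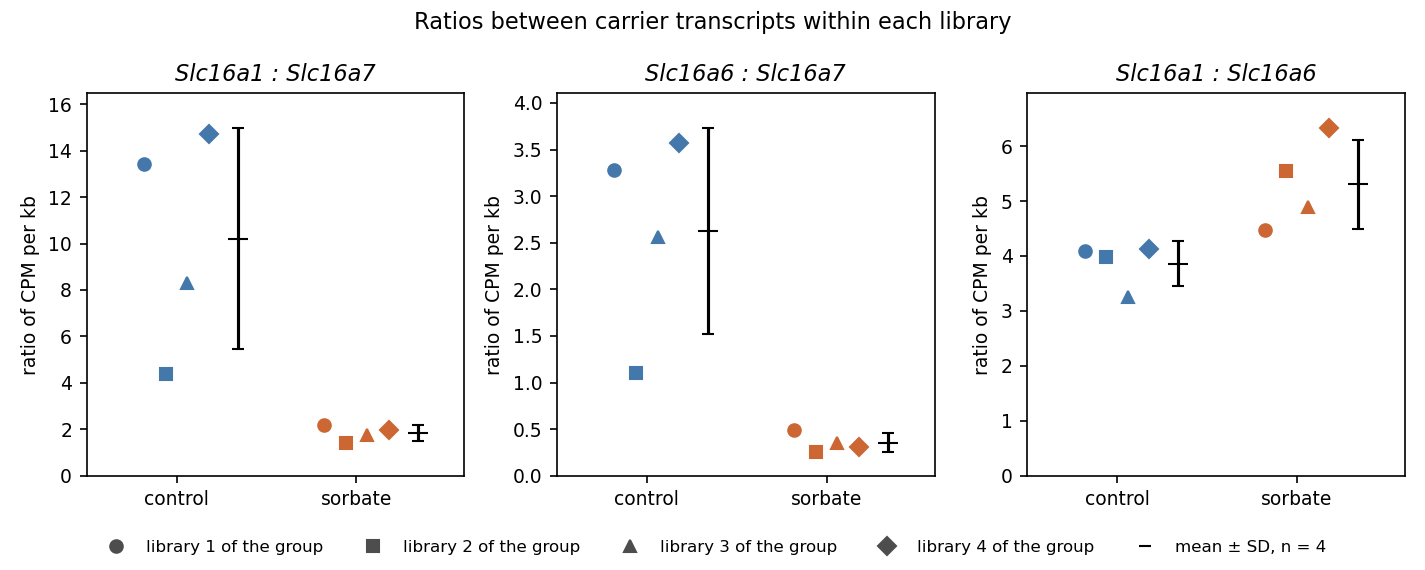
Ratios of CPM per kilobase between 2 carrier genes within the same library (vertical axes, from 0) for control and sorbate, 1 symbol per library, with the mean ± SD. Slc16a1 to Slc16a7 lies between 4.38 and 14.7 in the controls and between 1.43 and 2.20 with sorbate, and in the first 2 panels the lowest control is control 2.

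Slc16a11 and Slc16a13 are neighbours on chromosome 11 (70212752 to 70216417, plus strand, and 70216789 to 70221064, minus strand), 371 bases apart and tail to tail. Slc16a11 (ENSMUSG00000040938) stood at 5.66 to 8.81 CPM in the controls and 7.04 to 10.3 CPM with sorbate, so the groups overlapped. Its log2 fold change was 0.24 (SE 0.18, 95% interval −0.16 to 0.64, edgeR adjusted p = 0.414). Slc16a13 (ENSMUSG00000044367) was the gene with the fewest reads of the 8, 11 to 70 per library. It stood at 0.548, 1.56, 0.677 and 1.08 CPM in controls 1 to 4 and at 1.42, 3.11, 1.88 and 1.70 CPM in sorbate libraries 1 to 4. Control 2 lay above sorbate 1, and the other controls lay below all sorbate libraries. The log2 fold change of 1.07 (SE 0.38, 95% interval 0.24 to 1.92) missed the threshold (edgeR adjusted p = 0.0873). Without control 2 it was 1.40 and passed (adjusted p = 0.0152), it passed in DESeq2 (1.08, adjusted p = 0.0414) and in limma-voom (1.24, adjusted p = 0.0210), and it was 0.77 with the surrogate variable (adjusted p = 0.333).

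The 3 enzyme genes had positive fold changes, and none passed the test. Acat1 (ENSMUSG00000032047, chromosome 9, 53580522 to 53610382, minus strand) was at 191.6, 314.4, 216.4 and 218.6 CPM in controls 1 to 4 and at 341.1, 366.6, 316.5 and 331.1 CPM with sorbate. The groups did not overlap, and control 2 lay just under the lowest sorbate library, far from the other controls. The means were 235.3 ± 54.2 and 338.9 ± 21.1 CPM (SD, n = 4; log2 fold change 0.53, SE 0.16, 95% interval 0.18 to 0.87, edgeR adjusted p = 0.0506). This value sits at the threshold. It passed without control 2 (0.71, adjusted p = 0.000730), with DESeq2 size factors in edgeR (0.53, adjusted p = 0.0496), with library size alone (0.64, adjusted p = 0.0346), without the filter (0.53, adjusted p = 0.0417), in DESeq2 (0.53, adjusted p = 0.0113) and in limma-voom (0.63, adjusted p = 0.00179). It did not pass with the surrogate variable (0.31, adjusted p = 0.224) or without any other single library (0.44 to 0.56, adjusted p up to 0.146).

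Bdh1 (ENSMUSG00000046598, chromosome 16, 31422280 to 31458901, plus strand), the last step to beta-hydroxybutyrate, stood at 145.8, 174.6, 144.2 and 122.3 CPM in the controls and at 177.5, 230.2, 162.1 and 155.4 CPM with sorbate. Control 2 lay above 2 of the sorbate libraries, and sorbate 2 was the highest of all. The log2 fold change was 0.31 (SE 0.15, 95% interval −0.03 to 0.64, edgeR adjusted p = 0.211). Oxct1 (ENSMUSG00000022186, chromosome 15, 4026383 to 4155344, plus strand), the enzyme of ketone use, stood at 3.98, 3.30, 5.03 and 3.89 CPM in the controls and at 4.41, 5.69, 4.12 and 3.83 CPM with sorbate. The groups overlapped fully but for sorbate 2, and the log2 fold change was 0.16 (SE 0.20, 95% interval −0.28 to 0.60, edgeR adjusted p = 0.634). The intervals of both genes exclude a 2-fold change in either direction, but not a change of the size seen in Acat1.

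Per kilobase of merged exon, Acat1 was the highest of the 8 genes in both groups. In the controls the order of mean levels in CPM per kilobase was Acat1 (62.6 ± 14.4), Bdh1 (37.7 ± 5.51), Slc16a1 (18.7 ± 7.20), Slc16a6 (4.87 ± 1.76), Slc16a11 (2.85 ± 0.581), Slc16a7 (1.97 ± 0.458), Oxct1 (1.09 ± 0.195) and Slc16a13 (0.372 ± 0.176), with SD and n = 4. The neighbouring pairs Slc16a6 and Slc16a11, Slc16a11 and Slc16a7, and Slc16a7 and Oxct1 overlapped between libraries, and the other neighbours did not. With sorbate the order was Acat1 (90.2 ± 5.62), Bdh1 (46.6 ± 8.72), Slc16a1 (7.11 ± 0.742), Slc16a7 (3.92 ± 0.510), Slc16a11 (3.36 ± 0.553), Slc16a6 (1.36 ± 0.219), Oxct1 (1.22 ± 0.221) and Slc16a13 (0.780 ± 0.287). Here Slc16a7 and Slc16a11, Slc16a6 and Oxct1, and Oxct1 and Slc16a13 overlapped. On this scale the mean of Slc16a7 thus went from below those of Slc16a11 and Slc16a6 to above both. That order rests on merged exon lengths of 11839 bases for Slc16a7, 4883 for Slc16a6 and 2554 for Slc16a11. In plain CPM their control means were 23.3, 23.8 and 7.28, so Slc16a7 was already above Slc16a11 in the controls. Bdh1 exceeded Oxct1 per kilobase 27.3 to 50.4 times in the controls and 37.5 to 38.6 times with sorbate.

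The other genes of the pathway were read from 5 lists of 43 genes, of which 33 could be tested. Of these 8 were higher, 2 were lower and 23 were not called, with a median log2 fold change of 0.16. Over all genes tested 6.14% were higher and 6.3% lower, with a median of −0.02. The lists were chosen with earlier results of these data known. In the list of 7 other ketone body genes, 2 of the 4 tested rose and 1 fell, with a median of 0.35. Aacs, a cytosolic synthetase that turns acetoacetate into acetoacetyl-CoA for lipid synthesis, rose by 1.09 (SE 0.24, edgeR adjusted p = 0.0172) and was at 0.0536 without sorbate 4. Bdh2, a cytosolic dehydrogenase, rose by 0.67 (SE 0.20, edgeR adjusted p = 0.0482), a call that was lost with the surrogate variable and without any single library other than control 2 (adjusted p up to 0.130 over the leave-outs, log2 fold changes 0.54 to 0.84).

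Acat2, the cytosolic thiolase that feeds sterol synthesis, fell to 27.3 ± 4.21 CPM with sorbate, from 50.6 ± 8.96 (log2 change −0.89, SE 0.15, edgeR adjusted p = 0.00600), without overlap of the groups. Its near-identical neighbour Acat3 was at 195.4 ± 32.1 and 199.7 ± 19.8 CPM (log2 change 0.03, SE 0.14, edgeR adjusted p = 0.903). Reads of these paralogs could be split between them, so both values are uncertain. Hmgcll1, Oxct2a and Oxct2b held 4 reads or fewer in all, too few for a test at this depth.

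Of the 8 other Slc16 genes listed 4 were tested, 1 rose and 0 fell, with a median of 0.045. Beside these counts, 6.14% of all genes tested rose and 6.3% fell, with a median of −0.02. Slc16a12, a creatine carrier, rose from 32.3 ± 7.78 to 57.3 ± 8.82 CPM (0.83, SE 0.18, edgeR adjusted p = 0.0186). It missed the threshold with the surrogate variable (0.58) and without control 4, sorbate 1, sorbate 3 or sorbate 4 (0.67 to 0.94 over the leave-outs, adjusted p up to 0.0562). Slc16a10, an aromatic amino acid carrier, had a log2 change of −0.13 (SE 0.16, edgeR adjusted p = 0.604), and Slc16a5 one of 0.22 (SE 0.49, edgeR adjusted p = 0.796), which became 1.93 and passed with the surrogate variable (adjusted p = 0.0134). Without control 2 the log2 change of Slc16a5 was −0.11. Slc16a3, which encodes MCT4, had 27 reads over the 4 controls and 10 over the 4 sorbate libraries. Slc16a8, which encodes MCT3, had 0 reads in all 8. Among the genes of MCT1, MCT2, MCT3 and MCT4, those with a testable level were thus Slc16a1 and Slc16a7.

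MCT1 and MCT2 reach the membrane only with a partner protein, basigin or embigin. Bsg, for basigin, the partner of MCT1, stood at 357.4, 248.2, 291.7 and 373.0 CPM in controls 1 to 4 and at 253.7, 231.3, 245.9 and 217.8 CPM with sorbate. Control 2 lay within the sorbate range and the other 3 controls above it. The log2 fold change of −0.42 (SE 0.14, edgeR adjusted p = 0.0783) passed without control 2 (−0.51, adjusted p = 0.00802), in DESeq2 and in limma-voom, and was −0.20 with the surrogate variable. Emb, for embigin, the usual partner of MCT2, was low, at 1.05 ± 0.476 and 0.489 ± 0.173 CPM (−1.11, SE 0.42, edgeR adjusted p = 0.101), and passed without control 2 (−1.28, adjusted p = 0.0347). The mitochondrial pyruvate carrier genes Mpc1 (0.23, SE 0.12) and Mpc2 (0.27, SE 0.09) were not called (edgeR adjusted p = 0.221 and 0.0803). The groups did not overlap in Mpc2, which passed with library size alone (0.40, adjusted p = 0.0233), in DESeq2 (0.28, adjusted p = 0.0196) and in limma-voom (0.30, adjusted p = 0.0220). As reported, none of the 4 tested genes of this list of 6 passed the test in edgeR.

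Among 12 genes of lactate and pyruvate conversion, all tested, 2 rose and 1 fell, with a median of 0.15. The shares over all genes tested were 6.14% higher and 6.3% lower, with a median of −0.02. Ldha, the main lactate dehydrogenase subunit of liver, was at 1660.1, 689.2, 1481.6 and 1634.2 CPM in controls 1 to 4 and at 614.5, 767.9, 544.4 and 598.7 CPM with sorbate. Control 2 lay inside the sorbate range, so the groups overlapped, and the other 3 controls lay far above it. The log2 fold change was −1.11 (SE 0.25, edgeR adjusted p = 0.0199), −1.32 without control 2 and −0.48 with the surrogate variable. Its call was lost with that variable and when control 1, 3 or 4 or sorbate 1, 3 or 4 was left out (−1.01 to −1.32 over the leave-outs, adjusted p up to 0.0646). Pdk2, a kinase that switches off pyruvate dehydrogenase, rose from 43.8 ± 10.5 to 105.8 ± 8.57 CPM (1.27, SE 0.16, edgeR adjusted p = 0.00153), and was called under each alternative run. Pdp2, a phosphatase that acts against it, rose by 0.63 (SE 0.17, edgeR adjusted p = 0.0397), a call lost with the surrogate variable and without any single library other than control 2 (0.54 to 0.84 over the leave-outs, adjusted p up to 0.119). Pcx, pyruvate carboxylase (−0.24, SE 0.20), and Ldhd, the D-lactate dehydrogenase (−0.19, SE 0.13), were not called (edgeR adjusted p = 0.443 and 0.339).

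The last list held 10 genes, regulators and gate-keepers of ketone synthesis with some related genes (Hcar1, Hcar2 and Angptl4). Of the 10 genes 9 were tested, 3 rose and 0 fell, with a median of 0.53. Among all genes tested 6.14% rose and 6.3% fell, with a median of −0.02. Ppara, the nuclear receptor that drives ketogenic genes, rose to 145.6 ± 31.4 CPM, from 75.3 ± 8.32 (log2 change 0.95, SE 0.16, edgeR adjusted p = 0.00569). Cpt1a, which lets long-chain fatty acids into mitochondria, rose from 348.8 ± 35.3 to 539.7 ± 50.6 CPM (0.63, SE 0.13, edgeR adjusted p = 0.0114). Both were called under each alternative run. Creb3l3, a fasting-linked transcription factor, rose by 0.53 (SE 0.13, edgeR adjusted p = 0.0243), a call lost with the surrogate variable and without control 1, control 3, sorbate 1, sorbate 3 or sorbate 4 (0.47 to 0.61 over the leave-outs, adjusted p up to 0.0877). Sirt3, a mitochondrial deacetylase, had a log2 change of 0.54 (SE 0.16, edgeR adjusted p = 0.0542). It passed without control 2 (0.76), with library size alone, without the filter, in DESeq2 and in limma-voom. Fgf21, a fasting hormone, was at 1.34 ± 0.819 and 1.97 ± 1.999 CPM (0.54, SE 0.74, edgeR adjusted p = 0.663), and Angptl4 at 130.1 ± 12.96 and 141.6 ± 39.4 CPM (0.12, SE 0.20, edgeR adjusted p = 0.718).

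**Figure D3:**
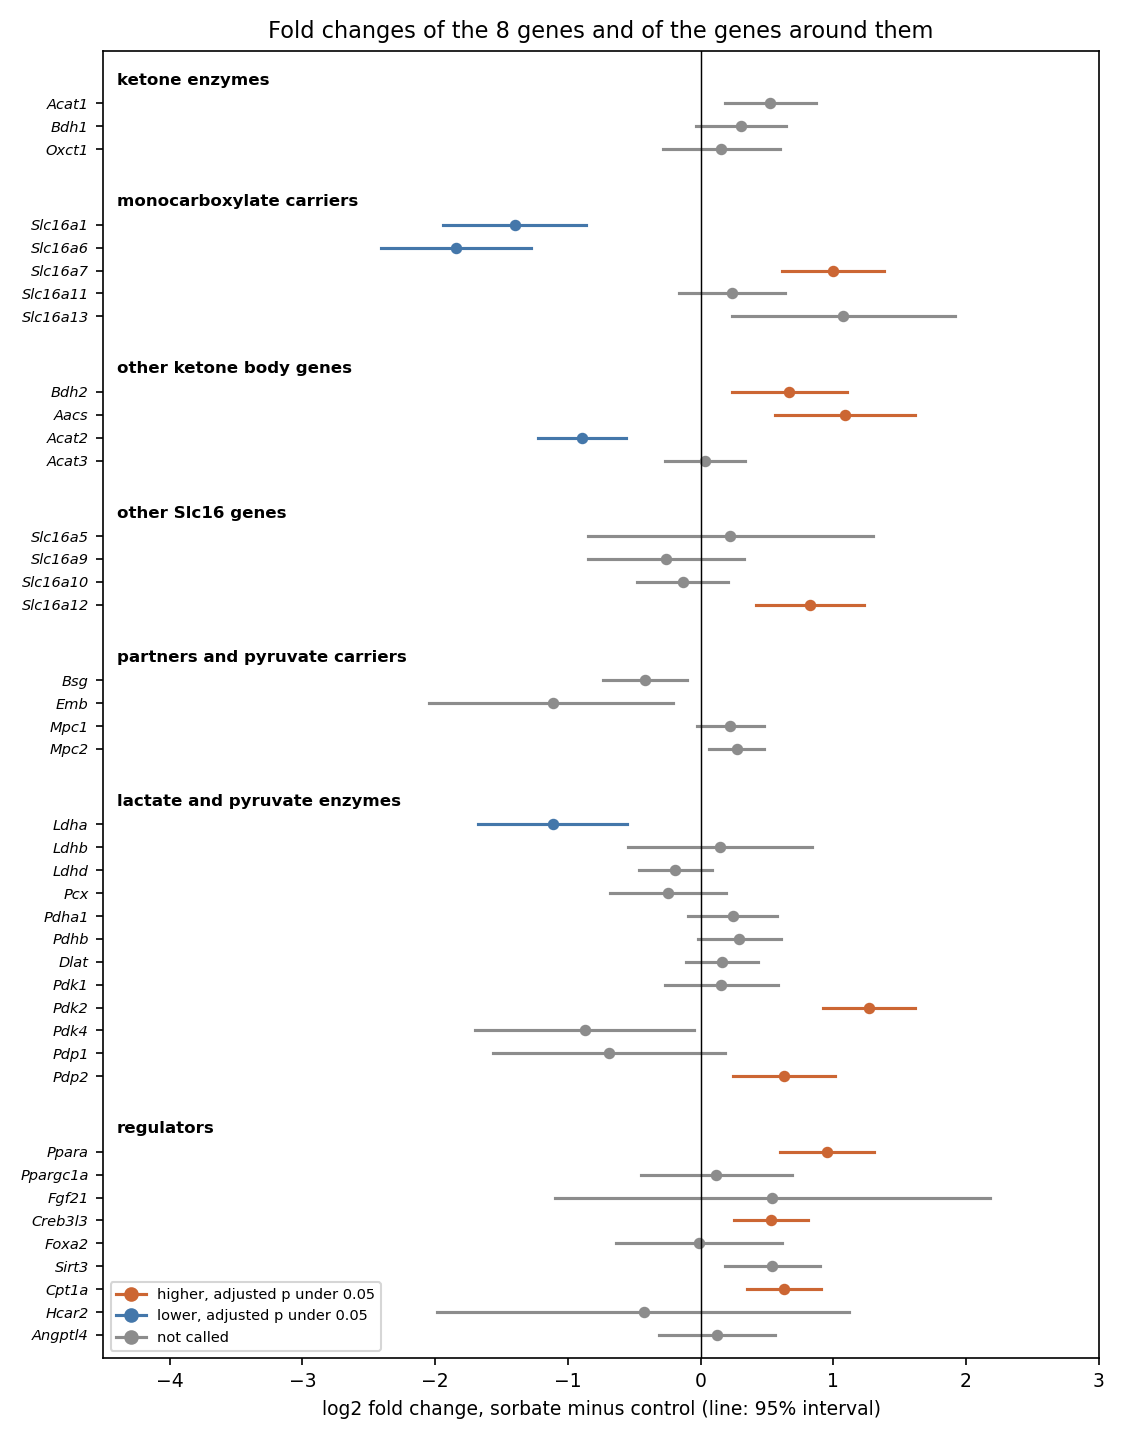
Log2 fold change of sorbate over control (horizontal axis, 0 marked) with its 95% interval for the 8 genes and for the 33 tested genes of the 5 lists around them; orange marks genes called higher, blue genes called lower and grey genes not called. Slc16a6 (−1.84), Slc16a1 (−1.40), Ldha (−1.11) and Acat2 (−0.89) are the genes called lower, and Pdk2 (1.27) has the largest called rise.

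The genes whose pattern over the 8 libraries was most like that of each called carrier were found by Pearson's r of log2 CPM, as a description. For Slc16a6 they were Dhcr7, the last enzyme of cholesterol synthesis (r = 0.995), Mgat5, a glycosyltransferase (0.995), and Tbl1xr1, a corepressor subunit (0.993). For Slc16a1 they were Slc11a2, an iron carrier (0.993), St6gal1, a sialyltransferase (0.992), and Nek6, a kinase (0.992). For Slc16a7 they were Aldh3a2, a fatty aldehyde dehydrogenase (0.989), and Ephx2, soluble epoxide hydrolase (0.984). These 8 genes differ between the groups in the same direction as their carrier (log2 fold changes −1.48, −1.24, −0.64, −1.10, −1.31, −0.79, 1.83 and 0.82 in the order given), and the group difference enters each r. The calls of Nek6 and Tbl1xr1 were lost with the surrogate variable. After the group means were taken out, Slc16a1 and Slc16a6 still moved together over the 8 libraries (r = 0.91), and each moved against Acat1 (r = −0.91 for both). Slc16a7 did so less (r = −0.32 with Slc16a1 and 0.40 with Acat1). Control 2 lies far from the other controls in Slc16a1, Slc16a6 and Acat1, and no r was computed without it.

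Facts of the libraries touch these results. Total counts ran from 15773932 to 25844731 per library, and mitochondrially encoded transcripts took 3.79% to 6.87% of them. On the first principal component, which held 53.6% of the variance, control 2 scored 15.4, the other controls −49.1 to −42.1 and the sorbate libraries 21.9 to 37.8. Over all genes, 29.3% were called without control 2 and 4.55% with the surrogate variable. That variable was 0.471 in control 2 and had a correlation of 0.588 with the groups, so its share and that of sorbate cannot be fully told apart. The hepatocyte markers were present in every library (2 of 10 higher, 0 lower, summed level 69122 to 86654 CPM in the controls and 83613 to 107245 with sorbate).

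Some markers of other cells were lower along with Slc16a1 and Slc16a6, and low in control 2 too. Beside the counts below, 6.3% of all genes tested were called lower and 6.14% higher. Of 8 Kupffer cell markers 5 were lower and 0 higher, with a summed level of 379.1 to 484.4 CPM in controls 1, 3 and 4, 199.1 in control 2 and 143.7 to 277.4 with sorbate. The 8 neutrophil markers, of which 1 could be tested and was lower, summed to 12.5 to 22.3, 0.950 and 0.274 to 1.33 CPM in the same 3 sets. The 7 bile duct markers did not move one way. Of the 5 tested, Spp1 and Sox9 were lower (log2 change −2.16 and −1.59), Krt23 was higher (3.10), Krt19 (1.03) and Epcam (0.06) were not called, and the median was 0.06. Their sum (123.3 to 248.5, 54.0 and 31.9 to 49.0 CPM) is mostly Spp1, which gave 113.9 CPM in control 1 and 24.3 CPM in sorbate 1. Of 6 red cell markers 4 were lower (527.3 to 1375.0, 331.3 and 251.0 to 372.8 CPM). Of 8 sinusoidal endothelial markers 1 was lower (248.6 to 288.8, 137.0 and 151.8 to 181.6 CPM). None of the 8 stellate cell markers was called (231.9 to 276.7, 175.1 and 196.6 to 318.6 CPM). Of the markers of lymphocytes, skeletal muscle, adipocytes and pancreatic acini 1, 1, 1 and 2 could be tested and 0 were called. Their summed levels in controls and sorbate libraries were 2.61 to 5.08 and 2.68 to 4.62 CPM, 0.338 to 0.935 and 0.411 to 0.756, 1.33 to 3.24 and 1.72 to 8.53, and 11.3 to 37.5 and 22.7 to 33.1. Ckm, Myh1 and Tnnt3 of muscle and Cpa1, Prss2 and Pnlip of pancreas were at 0 in all libraries. The part of these cells in the fold changes was not tested, and in bulk tissue fewer cells of a type and less RNA per cell cannot be told apart.

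**Figure D4:**
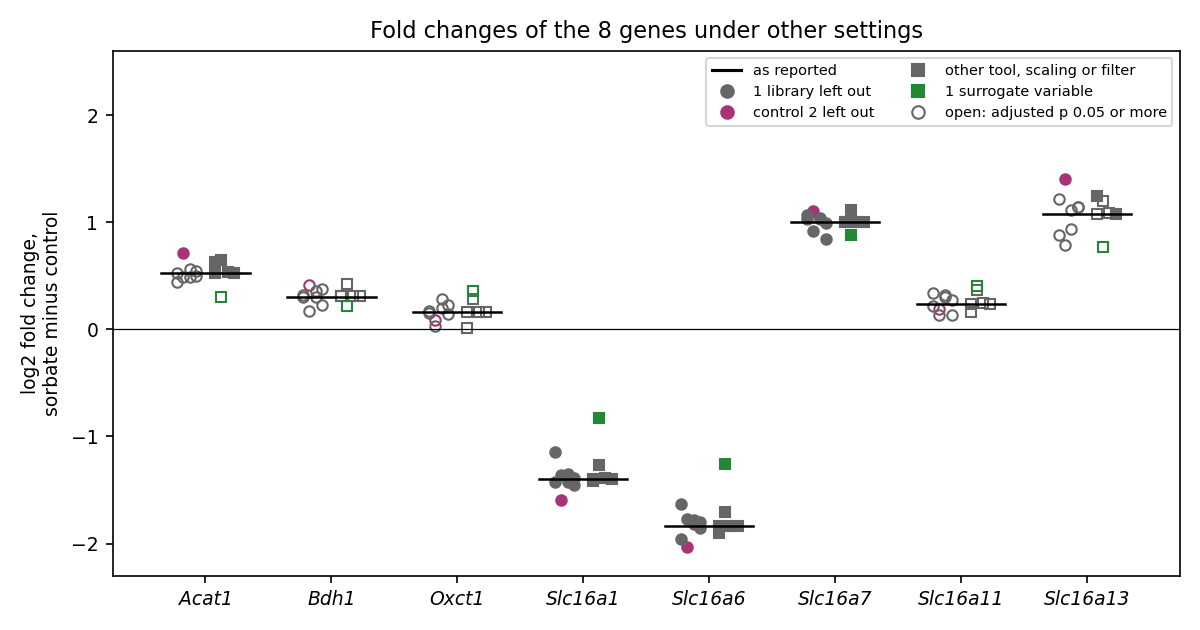
Log2 fold change of sorbate over control (vertical axis) for each of the 8 genes as reported (black line), with each library left out in turn (circles, control 2 in purple) and under 6 other settings (squares, the surrogate variable in green); filled symbols have an adjusted p under 0.05. Slc16a1, Slc16a6 and Slc16a7 are filled under all 14 alternatives, Acat1 under 6 and Slc16a13 under 3.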

How the data were processed

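Per the labels, poly(A) RNA of snap-frozen liver was sequenced as single reads from TruSeq libraries. The deposited table holds raw counts, whole numbers of reads per gene, which the authors did not normalize as far as the values show. FastQC, HISAT2 2.1.0, Subread and edgeR with build GRCm38 are named in the submitters' processing notes. The sources used here give no counting settings, strand or annotation. Table columns were matched to samples by name, and 4 columns of no sample were not used. No 2 libraries of a group agreed within sampling noise (chi-square 25.1 to 240.8 per gene).

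Genes were filtered with filterByExpr (count minimum 10; 13312 kept), scaled by TMM and tested with edgeR 4.0.16 in R 4.3.3, all 8 libraries in 1 fit. Tests were two-sided, p-values were adjusted by Benjamini-Hochberg across the genes kept, and 0.05 was the threshold. Standard errors come from the quasi-likelihood F. Lengths and coordinates come from GENCODE vM21 (GRCm38). Alternatives were DESeq2 1.42.0, its size factors in edgeR, library size alone, no filter, limma-voom 3.58.1 with sample quality weights, 1 surrogate variable (sva 3.50.0) and leaving out each library. The script was run on simulated counts in which no library was set apart as control 2 is. That run says nothing about this feature of the data. The 8 genes, the 5 gene lists and the 11 marker lists were chosen with earlier results of these data known. The genes named are the 8, a fixed set of others (Bsg, Emb, Mpc1, Mpc2, Ppara, Cpt1a and Fgf21), every list gene past the threshold, up to 2 others per list with the highest level, and the 3 genes most like each called member by Pearson's r of log2 CPM (prior count 2). Arsg, Amz2 and untested genes with few reads were named after their values were seen. Some genes under this rule are not reported here and were left out of the lists and their counts, not of the fit.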

Additional observations from a re-analysis of the deposited data

Results flagged for a closer look

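In 80 groups of 4 libraries looked at (every named gene, in control and in sorbate), 2 held a library far from the other 3, and chance flags about 1 in 20 groups. Pdk2 stood at 59.5 CPM in control 2, against 37.8 to 39.1 CPM in the other controls. Sirt3 stood at 80.1 CPM in control 2, against 47.1 to 50.5 CPM in the other controls. In both genes the sorbate libraries were higher still or at that level, from 93.6 CPM for Pdk2 and from 80.1 CPM for Sirt3.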

How the results depend on the processing

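Of 560 recomputed fold changes of the named genes, 491 kept their direction and their side of the threshold, 37 lost the call, 22 gained it and 10 turned. The 2 members called lower stayed 2 under all 14 alternatives. The number called higher, 1 as reported, was 2 with DESeq2 size factors in edgeR, library size alone or no filter, 3 in DESeq2 and in limma-voom, and 1 to 3 over the leave-outs (3 without control 2). Of all genes 12.4%, 13.9% and 7.83% were called in the first 3 settings, against 12.4% as reported. The share was 18.4% in DESeq2, 29.4% in limma-voom and 29.3% without control 2. The other leave-outs called 5.1% (without control 3) to 8.34% (without sorbate 2). Of the genes in the lists, 8 were called higher and 2 lower. These were 5 and 1 with the surrogate variable, 10 and 3 in DESeq2, 10 and 4 in limma-voom, and 3 to 10 higher and 1 to 5 lower over the leave-outs, with most in both directions (10 and 5) without control 2. The turned values, none of them called, were −0.11 for Acat3, 0.021 for Slc16a10 and 0.18 for Pcx with the surrogate variable, −0.036 for Acat3 without control 3 (also negative without control 4 or sorbate 3, leave-outs −0.036 to 0.14), −0.11 for Slc16a5 without control 2 (leave-outs to 0.76), −0.53 for Fgf21 in limma-voom and −0.43 without sorbate 2 (leave-outs to 0.92), and 0.0010 for Amz2 with library size alone. The cause was not tested. With library size alone the all-gene median went from −0.02 to 0.11 (log2). Low counts limit the precision for Slc16a13, Emb and Fgf21, among others. No paired analysis was possible because replicate numbers only follow the order of accessions.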
